A study of Mus musculus with 2 samples.

Results

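A set of 9 genes of antibody recognition was followed on the pair of arrays: the IgG receptors Fcgr1, Fcgr2b, Fcgr3 and Fcgr4, the shared signalling chain Fcer1g, the neonatal receptor Fcgrt, the adaptor Tyrobp, the kinase Syk and the phosphatase Inpp5d. They are 9 of the 18193 genes that a probe set of the array names alone, and they were read by 18 of 34945 such probe sets. The set was chosen by the mutant and wild-type signals of Fcgr2b, higher in the mutant on 4 probe sets, so the Fcgr2b values below describe that choice and support nothing. One array carried RNA of gonad-mesonephros complexes, the embryonic gonad with the attached mesonephric kidney, of XX wild-type mouse embryos at E12.5, in mid-gestation. The other carried RNA of the same tissue and stage from XX embryos homozygous for Gata4ki (Gata4ki/ki), a knock-in allele that weakens the contact of the transcription factor GATA4 with its FOG cofactors. Per the labels' protocols the RNA on each array came from 6 pairs of complexes; the design text counts 6 samples of each genotype, and 1 array of each is analysed here. Whether these were pooled is not stated beyond that, and the strain, C57Bl/6, is stated for the mutant only. With 1 array per group no value below has a replicate error or a p-value, and each difference compares these 2 arrays, not the genotypes.

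Fc receptors bind the constant part of antibodies and are carried mainly by macrophages, granulocytes, mast cells, natural killer cells and B cells. Activating receptors such as Fcgr1, Fcgr3 and Fcgr4 signal through the Fcer1g chain, whose ITAM (immunoreceptor tyrosine-based activation motif) recruits the kinase Syk. Fcgr2b is the inhibitory IgG receptor: its ITIM (the inhibitory counterpart of that motif) recruits the phosphatase encoded by Inpp5d, known as SHIP1. Tyrobp, also called DAP12, is an ITAM adaptor for other myeloid and natural killer cell receptors, and Fcgrt pairs with beta-2 microglobulin to carry IgG across cells and spare it from breakdown. Macrophages that arise in the yolk sac are known to populate the embryonic gonad and mesonephros.

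Fcgr2b, Fcgr4 and Fcgr3 are neighbours on mouse chromosome 1, and the sequences around their start sites are shown, with that of the related Fcgr1 on chromosome 3, because the set turns on Fcgr2b and its closest relatives. Each is the RefSeq promoter of assembly GRCm38.p6, 250 bases before to 50 bases after the start, printed 5' to 3' on the gene's strand. The windows are chr1:170976022-170976321 on the minus strand for Fcgr2b, chr1:171018676-171018975 on the plus strand for Fcgr4, chr1:171059354-171059653 on the minus strand for Fcgr3 and chr3:96293920-96294219 on the minus strand for Fcgr1. Capitals mark every GAGGAA, one form of the site bound by the myeloid factor PU.1. The shorter GGAA within it was not searched on its own. Also marked is every site of the form read by GATA factors: AGATAA with its close variant AGATAG, and TGATAA with its close variant TGATAG. Both strands were searched.
Fcgr2b: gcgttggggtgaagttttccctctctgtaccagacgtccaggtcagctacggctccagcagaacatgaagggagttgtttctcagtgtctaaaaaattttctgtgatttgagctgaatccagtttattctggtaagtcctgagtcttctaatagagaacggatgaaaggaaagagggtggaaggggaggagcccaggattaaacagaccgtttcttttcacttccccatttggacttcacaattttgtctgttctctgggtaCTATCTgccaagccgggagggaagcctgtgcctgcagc
Fcgr4: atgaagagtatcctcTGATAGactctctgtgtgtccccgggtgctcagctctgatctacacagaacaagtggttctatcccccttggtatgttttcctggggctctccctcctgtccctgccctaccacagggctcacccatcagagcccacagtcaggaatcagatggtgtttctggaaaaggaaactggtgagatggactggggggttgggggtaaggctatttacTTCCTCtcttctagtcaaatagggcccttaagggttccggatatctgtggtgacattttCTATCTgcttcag
Fcgr3: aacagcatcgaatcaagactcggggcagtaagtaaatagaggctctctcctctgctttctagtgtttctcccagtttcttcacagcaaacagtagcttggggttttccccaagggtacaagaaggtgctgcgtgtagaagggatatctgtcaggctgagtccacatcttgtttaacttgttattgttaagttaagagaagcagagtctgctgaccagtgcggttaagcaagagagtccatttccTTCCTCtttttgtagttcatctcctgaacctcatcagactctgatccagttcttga
Fcgr1: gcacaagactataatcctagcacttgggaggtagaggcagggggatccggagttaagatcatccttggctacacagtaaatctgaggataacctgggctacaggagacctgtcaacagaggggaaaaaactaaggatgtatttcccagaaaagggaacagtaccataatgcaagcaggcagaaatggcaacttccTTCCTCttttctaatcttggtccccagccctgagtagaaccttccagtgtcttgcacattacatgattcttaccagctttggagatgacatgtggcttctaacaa
Of these windows, GAGGAA was present in Fcgr1, Fcgr3 and Fcgr4 and was not in the Fcgr2b window. The Fcgr2b window does hold the shorter GGAA, left in lower case. The Fcgr2b window held 1 GATA motif, the Fcgr4 window held 2, and the other pair held none. No marked motif overlapped another in these windows. Among all 32851 promoter windows of 300 bases, 28.3% held GAGGAA and 29.8% a GATA motif. Of the 8 genes with an entry, 4 had GAGGAA and 3 a GATA motif in the first listed window. In the Inpp5d window there were 2 GAGGAA sites and 1 GATA motif, whereas the windows of Fcer1g, Fcgrt and the first Syk entry held neither. Fcgr3 and Syk each have 2 entries, and the second Syk window held 1 of each motif. A match of letters is a description and shows no binding.

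The inhibitory receptor Fcgr2b had a mutant signal several times the wild-type signal on each of its 4 probe sets above background. Signals are MAS5 intensities, scaled so that the trimmed mean was 150.0 on both arrays. Values under 24.04, the 50th percentile of all signals, were raised to that floor. Where 1 array lay at or below the floor the ratio is only a bound, given as "at least". On the _s_at probe set wild type gave 31.5 and the mutant 146.6, a 4.65-fold difference and a log2 ratio (mutant minus wild type) of 2.22. One _a_at probe set gave 24.8 and 114.2, a log2 ratio of 2.20. Both wild-type signals lay just above the floor, and both mutant signals well above it.

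The remaining Fcgr2b probe sets are known only as bounds or not at all. The _x_at probe set gave 13.2 in wild type and 71.7 in the mutant, at least 2.98-fold higher. The other _a_at probe set gave 13.0 and 65.1, at least 2.71-fold higher. The wild-type array was under the floor on both, so the size of their difference is not fixed. Without the floor the log2 ratios of the 4 probe sets ran from 2.20 to 2.44, with an SD of 0.11 over probe sets. That SD is the spread of probe sets reading the same RNA, not of embryos, and 3 of the 4 were designed on 1 sequence record. The fifth probe set, with no suffix, gave 0.28 and 0.21, below the floor both times, so it carries no ratio.

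The suffixes of the Fcgr2b probe sets limit what they read. On this array _s_at and _x_at mark probe sets with probes that can match other transcripts, and _a_at marks those shared by transcripts of 1 gene. All 4 measured Fcgr2b probe sets carry a suffix, and with suffixed probe sets left out Fcgr2b had no measured value. With only _s_at and _x_at probe sets left out, a comparison added after the values were seen, Fcgr2b kept a log2 ratio of 2.20 from an _a_at probe set. Fcgr2b and Fcgr3 encode closely related extracellular parts, and the Fcgr3 probe set had a log2 ratio of 0.49 on the same arrays. A share of signal from related transcripts was not tested.

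**Figure D1:**
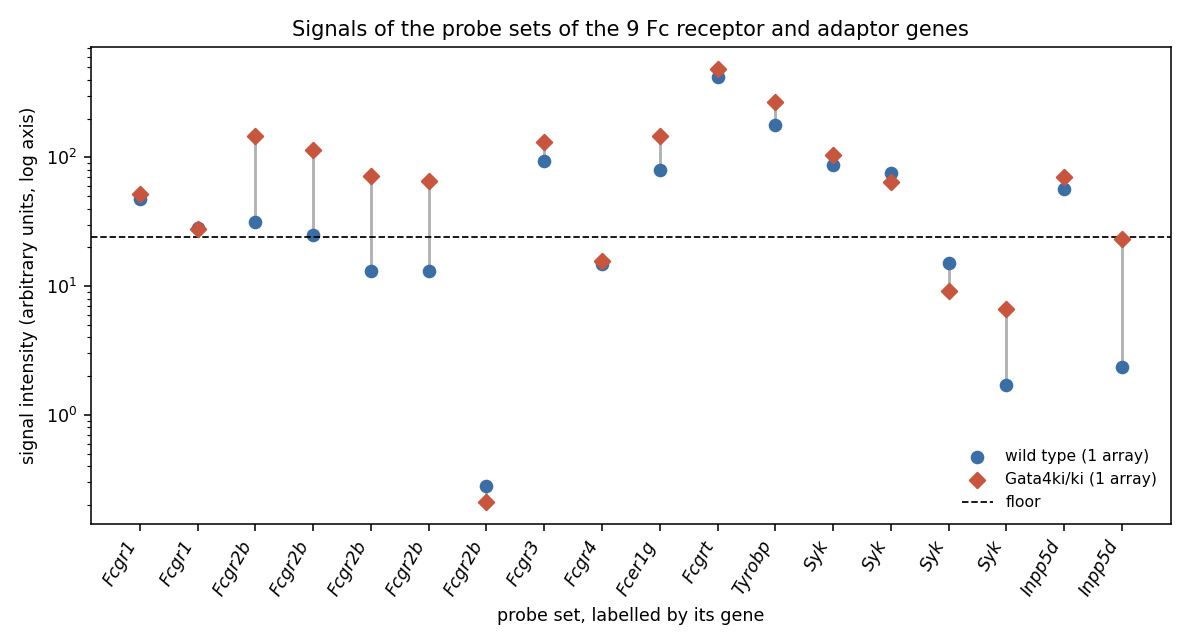
Signal intensity on a log axis for each of the 18 probe sets, wild type as circles and Gata4ki/ki as diamonds, 1 array each, with the floor of 24.04 dashed. Of 5 Fcgr2b probe sets, 4 have mutant signals from 65.1 to 146.6 and wild-type signals from 13.0 to 31.5, and 5 of all 18 lie under the floor on both arrays.

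Among all genes, Fcgr2b stood near the top of the ratios. Of 12300 genes that exceeded the floor on 1 or both arrays, each read by its probe set of highest mean log2 signal, 7 had a higher mutant to wild-type ratio with bounds at their value. At least 2-fold higher were 104 of these genes, 0.846%, and at least 2-fold lower were 66, 0.537%. Of the 9 genes followed here 8 were measured, 1 was at least 2-fold higher and none was 2-fold lower. By probe set, 4 of 13 measured were 2-fold higher, all of them of Fcgr2b, against 0.753% of 21238 measured probe sets, and none was 2-fold lower, against 0.622%. The contrast that chose Fcgr2b is the one counted here, so nothing is read from these shares. Ratios scatter more at low signal: with a mean signal from the floor to 100, 1.52% of 7374 probe sets were 2-fold higher and 1.4% lower. The robust SD of the log2 ratio was 0.41 in that range, 0.22 from 100 to 400 and 0.13 at 400 or more.

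The activating receptors had smaller differences than 2-fold or no measured signal. Fcgr3, the low-affinity activating receptor (CD16), gave 93.7 in wild type and 131.7 in the mutant, a log2 ratio of 0.49. Fcgr1, the high-affinity receptor (CD64), gave 47.3 and 52.1 on one probe set, a ratio of 0.14, and 28.3 and 27.7 on the other, a ratio of -0.03. The Fcgr1 probe sets disagreed in sign and both ratios are small beside the scatter of probe sets at that signal. Fcgr4, another activating receptor, gave 14.9 and 15.5, both below the floor, which leaves its ratio unknown.

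The ITAM chains had the next highest ratios of the set. Fcer1g, the common gamma chain that activating Fc receptors need at the surface, gave 80.2 in wild type and 147.0 in the mutant, 1.83-fold higher with a log2 ratio of 0.87. In the order of all measured genes this was place 150 from the highest ratio, within the top 1.22%. Tyrobp gave 179.1 and 268.4, a log2 ratio of 0.58 or 1.499-fold, at place 438. Each of these genes has 1 probe set, so no second reading exists.

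The enzymes downstream had log2 ratios from -0.25 to 0.31 on their measured probe sets. Syk, the tyrosine kinase that docks on phosphorylated ITAMs, gave 87.1 and 105.0 on one probe set and 76.1 and 63.9 on another, log2 ratios of 0.27 and -0.25. Its other probe sets gave 15.1 and 9.18, and 1.70 and 6.65, under the floor on both arrays. The measured Syk probe sets disagreed in sign, and their median was 0.01. Inpp5d, the inositol phosphatase recruited by Fcgr2b, gave 56.9 and 70.6, a log2 ratio of 0.31. The second Inpp5d probe set gave 2.37 and 23.1, and with the mutant signal just under the floor no ratio is given.

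The neonatal receptor differed little. Fcgrt, which also acts in epithelia, endothelium and yolk sac, gave 420.4 and 484.9, a log2 ratio of 0.21. Its light chain B2m gave 1323 and 1412 on one probe set, a ratio of 0.09, and 0.19 on the other. Of 8 listed genes, namely B2m, MHC class I genes and their relatives, and Alb, whose product albumin the receptor also carries, 6 were measured, none was 2-fold apart, and the median log2 ratio was 0.03. On the representing probe sets the largest ratios in that list were 0.96 for Hfe, an iron-regulating class I relative, -0.29 for Mr1, 0.24 for H2-K1 and -0.16 for H2-D1. The other H2-K1 probe set gave 0.74, and the other H2-D1 probe sets gave 0.14 and at least 0.22.

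Over the 8 measured genes, each by its representing probe set, the log2 ratios ran from 0.14 to 2.22, with 8 above 0 and a median of 0.40. Counted by probe set, 11 of 13 measured were above 0, and those of Syk and Fcgr1 at -0.25 and -0.03 were not. Over all 12300 measured genes 51.4% were above 0 and the median was 0.01. Without Fcgr2b the median of the other 7 was 0.31 and the highest ratio was that of Fcer1g. Because the set was chosen with these values known, the counts describe it and are not evidence of a shared shift.

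**Figure D2:**
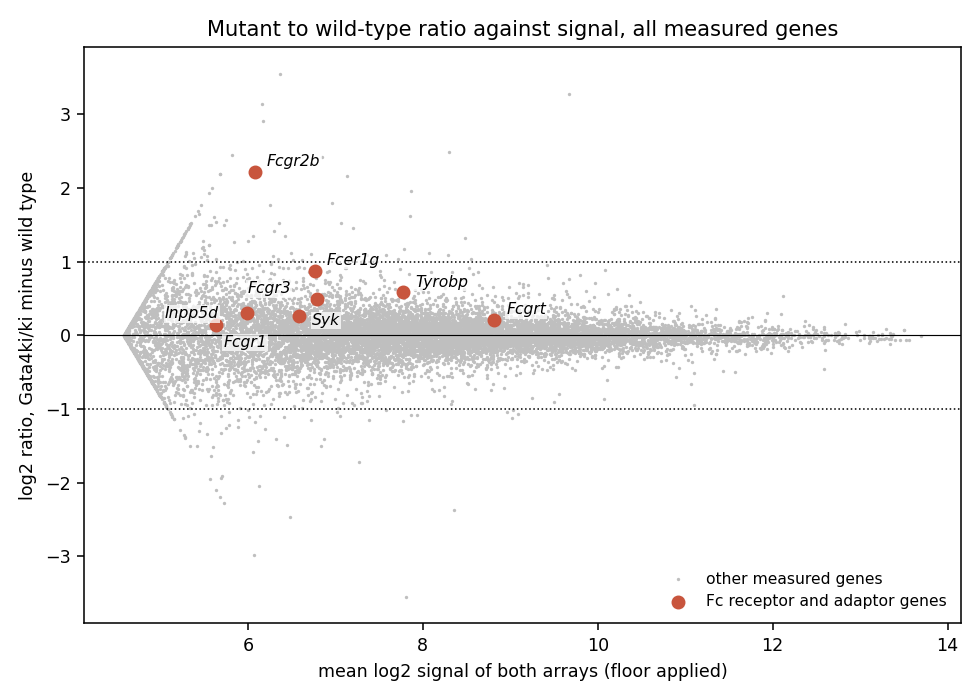
Log2 ratio of Gata4ki/ki minus wild type against the mean log2 signal of both arrays for 12300 measured genes in grey and the 8 measured Fc receptor and adaptor genes in red; dotted lines mark 2-fold. Fcgr2b lies at 2.22 and the other 7 lie between 0.14 and 0.87, and the straight left edges are genes with 1 array at the floor.

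Other Fc receptors were mostly under the floor. Of 14 further genes for receptors and binders of antibody 11 were on the array and 2 were measured: Fcrls, a receptor-like gene of macrophages and microglia, with 85.0 and 98.2, and Trim21, a cytosolic antibody receptor, with 137.6 and 127.8. Their log2 ratios were 0.21 and -0.11, and the second Trim21 probe set gave 0.48. Fcer1a and Ms4a2, which with Fcer1g form the IgE receptor of mast cells and basophils, were under the floor on both arrays, with signals of 1.03 and 0.92 for Fcer1a. Fcer2a, Fcrla and Fcrl1, genes of B cells, were under it too.

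Other receptors linked to ITAM signalling were seldom above background. The list holds partners of Tyrobp and Fcer1g and a few receptors with their own signalling domains, among them Clec7a and Csf1r. Of 18 listed, 17 were on the array and 5 measured, 3 of them only as bounds, with a median log2 ratio of 0.17. Clec7a, the beta-glucan receptor Dectin-1 with an ITAM-like motif in its own tail, gave 53.6 and 137.1 and was 2.56-fold higher, the only 1 of the list past 2-fold, where 0.846% of all measured genes were. Csf1r, the receptor tyrosine kinase for macrophage growth factor, gave 626.0 and 1066, a log2 ratio of 0.77, and its other probe sets gave 0.59 and 0.40. Trem2, a Tyrobp partner, gave 12.2 and 26.4, at least 1.10-fold higher, and Itgb2 gave 17.97 and 27.0, at least 1.12-fold higher. The median of this list depended on the floor and was 1.06 with the floor at the 60th percentile, where only Clec7a and Csf1r were measured.

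Inhibitory receptors other than Fcgr2b showed no 2-fold difference. Of 15 listed genes 13 were on the array and 6 measured, 3 as bounds, with a median log2 ratio of 0.02. Clec4a2 gave 20.2 and 35.2, at least 1.46-fold higher, and Cd300a at least 1.11-fold. Ceacam1 had a ratio of -0.23, and Sirpa, the macrophage receptor for CD47, 0.09 on one probe set and -0.39 on the other.

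Signalling genes downstream of ITAM receptors went both ways and none was 2-fold apart on its representing probe set. Of 24 activating genes 21 were on the array and 17 measured, 10 of them above 0, with a median log2 ratio of 0.11. Zap70, the Syk relative of T cells, gave 73.7 and 40.6, a ratio of -0.86. Vav3, a guanine nucleotide exchange factor acting after Syk, gave 102.2 and 165.4 on its _s_at probe set, a ratio of 0.69. The other Vav3 probe sets gave 58.2 and 289.4, a ratio of 2.31, and 23.3 and 70.2, at least 1.55, so Vav3 counts as 2-fold higher by the median of its probe sets, with the pseudocount of 24 and without _s_at and _x_at probe sets. Btk, a kinase of B and myeloid cells, gave 4.13 and 38.5, at least 1.60-fold higher, and Lcp2 at least 1.39-fold. Btk was 2-fold higher with the floor at the 40th percentile and with the pseudocount, at log2 ratios of 1.49 and 1.15.

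No measured gene of the inhibitory signalling list was 2-fold apart. Of 14 listed genes 12 were on the array and all 12 were measured, 9 of them above 0, with a median log2 ratio of 0.13. Ptpn6, the phosphatase SHP-1, gave 134.9 and 132.9, a ratio of -0.02. The largest ratios on the representing probe sets were 0.32 for Pag1, 0.30 for Inpp5a, 0.27 for Dok3 and -0.26 for Csk. The probe sets of Ubash3b disagreed, at 0.15, 0.45 and -0.82.

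**Figure D3:**
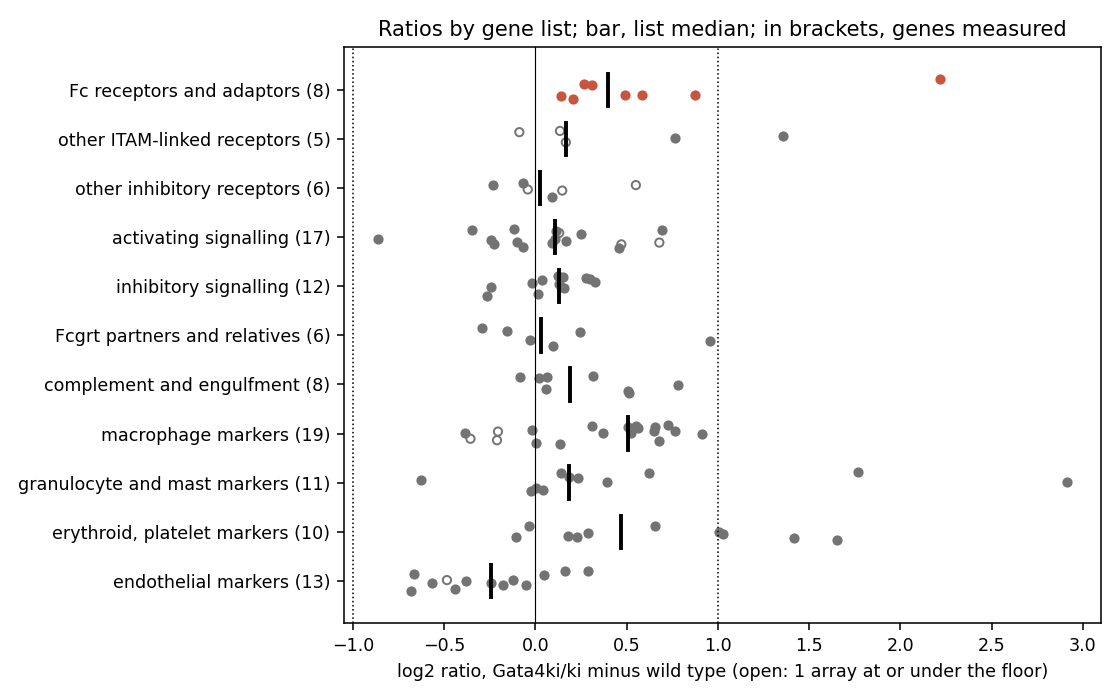
Log2 ratio of Gata4ki/ki minus wild type for each measured gene, by list, with the list median as a bar and open circles for genes with 1 array at or under the floor; dotted lines mark 2-fold. The medians are 0.40 for the Fc receptors and adaptors and 0.51 for the macrophage markers. Fcgr2b, the gene the set was chosen for, lies at 2.22, the highest listed macrophage marker at 0.92 and Clec7a of the ITAM-linked receptors at 1.35.

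Most macrophage markers had ratios above 0, without reaching 2-fold. Of 20 markers 19 were measured and none was 2-fold apart, with a median log2 ratio of 0.51. Without suffixed probe sets the median was 0.25. Of the 19, 14 had a ratio above 0, where 51.4% of all measured genes were. The signals of the 19 markers summed to 2596 on the wild-type array and 3717 on the mutant array, a ratio of 1.43. Csf1r, with 626.0 and 1066, and Pf4, with 356.9 and 561.9, weighed most in these sums. Csf1r is also in the list of ITAM-linked receptors and Pf4 in that of erythroid and platelet markers. Lowering the floor to the 40th percentile put Spi1 and Ccr2 at -1.01 and -1.02, so that 2 markers were then 2-fold lower. In whole tissue, a different number of cells of a type and a different amount of RNA per cell cannot be told apart.

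The single markers spread around the median of 0.51. Ptprc, the pan-leukocyte gene, gave 64.0 and 120.7, a log2 ratio of 0.92. Adgre1, which encodes F4/80, gave 94.1 and 155.5, a ratio of 0.72, and Ms4a7 had 0.68. Cd68, a lysosomal marker, gave 58.1 and 63.7, and Cx3cr1, the fractalkine receptor, gave 71.3 and 54.6, a ratio of -0.39. Cd163 was under the floor on both arrays, at 3.10 and 5.71, and Spi1, the gene of PU.1, gave 27.7 and 10.7 with the mutant array under it. The ratio of Fcer1g lay below that of Ptprc, and those of Tyrobp and Fcgr3 lay within the range of the markers. Fcgr2b, the gene the set was chosen for, lay above that range, and nothing is read from its place. The range is that of the listed markers only, and Clec7a, from the list of ITAM-linked receptors, also lay above it, at 1.35. The part of macrophage number in these ratios was not tested.

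Complement and engulfment genes had a lower median than these markers. Of 14 listed genes 8 were measured, 7 above 0 and none 2-fold apart, with a median log2 ratio of 0.19. C1qa, C1qb and C1qc, the chains of the complement protein C1q made by macrophages, had ratios of 0.02, 0.51 and 0.51, and the C1qb probe sets ranged from 0.24 to 0.96. Cd36 had the largest ratio, 0.78, and Axl had 0.31. Itgam, a complement receptor chain, was under the floor on both arrays, at 9.11 and 9.53.

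Markers of other cells that can carry Fc receptors were examined in the same way. Of 16 granulocyte and mast cell markers 11 were measured, 2 of them 2-fold higher against 0.846% of all measured genes, with a median log2 ratio of 0.19 and summed signals of 2439 and 3141. Prg2, an eosinophil granule protein, gave 26.3 and 198.1, and Mpo, myeloperoxidase, gave 41.3 and 140.4, while Prtn3 and the mast cell gene Cpa3 had ratios of 0.62 and -0.63. The other measured genes of that list, Epx, Ngp, Camp, Ltf, Gata1, S100a8 and S100a9, had ratios from -0.02 for Epx to 0.39 for S100a9. The mast cell genes Cma1, Mcpt4 and Tpsb2 were under the floor on both arrays. Of 11 lymphoid markers on the array 2 were measured, Cd79b and Cd8a, with ratios of 0.17 and 0.13 and summed signals of 70.6 and 78.5. The defining B cell genes Ms4a1 and Cd79a, the T cell gene Cd3e and the natural killer cell gene Ncr1 were under the floor on both arrays.

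Endothelium, a site of Fcgr2b in liver sinusoids, mostly had ratios below 0. Of 14 endothelial markers 13 were measured, 3 above 0 and none 2-fold apart, with a median log2 ratio of -0.24 and summed signals of 2972 and 2564. Lyve1, Sox17, Sox18 and Oit3 had ratios of -0.68, -0.66, -0.57 and at most -0.48, and the sinusoidal gene Stab2 gave 44.9 and 46.5. Erythroid and platelet markers had a median of 0.47, with 4 of 10 measured genes 2-fold higher, against 0.846% of all measured genes, namely Klf1, Slc4a1, Alas2 and Ppbp at 1.66, 1.42, 1.03 and 1.005, and summed signals of 17032 and 18630. With the pseudocount, or without suffixed probe sets, 2 of them were 2-fold higher. The other Slc4a1 probe set gave 0.95. The remaining measured genes of that list ran from -0.11 for Itga2b to 0.65 for Pf4. Hbb-y, with 9198 and 8977, weighed most in the sums, and its ratio was -0.04. Hbb-bh1, Epor and Hba-x had ratios of 0.18, 0.23 and 0.29. Yolk sac and placenta markers had 5 of 9 measured, a median of 0.11 and summed signals of 522.4 and 436.5, with Amn, Afp, Cubn and Peg10 at 0.47, -0.47, 0.17 and 0.11. The part of these cells in the Fc receptor ratios was not tested.

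Markers of the labelled tissue were present on both arrays. All 10 gonad somatic markers, all 9 mesonephric markers on the array and all 7 germ cell markers on it exceeded the floor in wild type and in the mutant, with median log2 ratios of -0.10, -0.16 and 0.08. Of these genes, Fst at -3.55 and Foxl2 at -2.05 were 2-fold lower in the mutant, where 0.537% of all measured genes were. Nr5a1 and Rspo1 had ratios of 0.34 each. Calb1, Ret, Emx2 and Lhx1 had the largest mesonephric ratios, at -0.72, -0.34, -0.23 and 0.21, and Dnd1, Kit, Dppa5a and Dazl the largest germ cell ratios, at -0.71, 0.51, 0.41 and -0.31. The second probe sets of Lhx1, Ret and Kit went the other way, at most -0.55, at least 0.13 and -0.10. Wt1 gave 1461 and 1475. Gata4 gave 240.8 and 286.2 on its brighter probe set and 49.2 and 34.6, a ratio of -0.51, on the other. Gata4 does not check the label because the allele alters the protein. Xist gave 1805 and 1742, and Eif2s3y, Kdm5d, Uty and Sry were under the floor on both arrays.

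Fcgr2b, Fcgr4, Fcgr3 and Fcer1g lie in 1 stretch of chromosome 1 with other genes between them. From Fcgr2b to Fcer1g the RefSeq table orders 11 protein-coding genes, 10 of them on the array and 8 measured. In that order Fcgr2b is followed by Fcgr4, Fcgr3, Cfap126 and Sdhc, and Fcer1g stands after Tomm40l and Apoa2. The 5 measured genes that are no Fc receptor gene had log2 ratios from -0.51 for Cfap126 upward, with Sdhc at -0.09 and Tomm40l at 0.04. Apoa2, with 14.2 and 30.1, and Pcp4l1, with 18.5 and 30.0, are known only as at least 0.33 and at least 0.32. With the floor at the 40th percentile their log2 ratios were 1.08 and 0.70, so Apoa2 then passed 2-fold. This comparison was added after the values were seen.

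**Figure D4:**
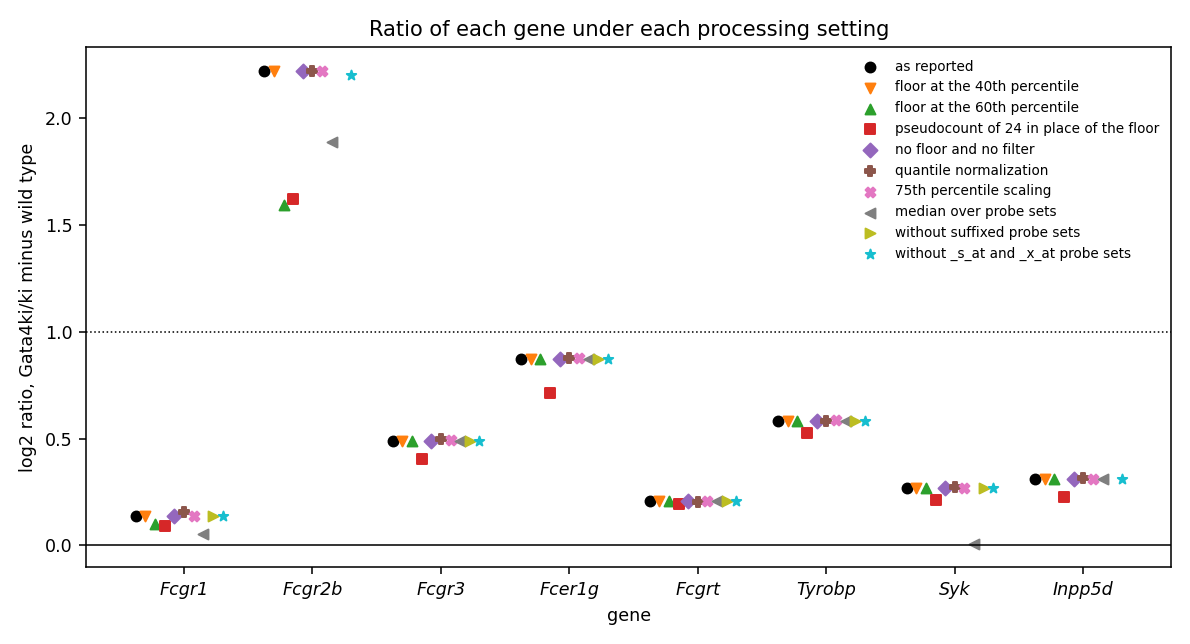
Log2 ratio of Gata4ki/ki minus wild type for each of the 8 measured genes as reported and under each processing setting that gives a value; the dotted line marks 2-fold. Fcgr2b lies between 1.59 and 2.22 in every setting drawn and has no value without suffixed probe sets, while Fcer1g stays between 0.71 and 0.88 and Syk between 0.01 and 0.27.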

How the data were processed

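The 2 arrays, 1 per group, held total RNA of E12.5 XX complexes, labelled as biotin cRNA per the labels' protocols. The authors deposited 1 linear signal intensity for each probe set and array. The submitters' processing notes name MAS5; its version and the detection calls were not used here, and no build is tied to the signals. Nothing was normalized again. The number of arrays limits the precision.

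Probe sets were named by the platform's annotation: of 45101, 34958 had 1 gene symbol, 932 several and 9211 no listed symbol. The 64 control probe sets were left out. The gene number of 34754 was found in the RefSeq table of GRCm38.p6, which changed no symbol. Signals under the floor (50th percentile, 24.04) were set to it before log2; a gene with an array above it was measured and was represented by its probe set of highest mean log2 signal. No test was possible. Spread across features is given as the robust SD. The calculations used Python 3.11.15, numpy 2.4.6 and pandas 2.3.3 and were tested on simulated data.

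The named genes are every member and up to 4 genes of each other list with the largest absolute log2 ratio. A fixed set of macrophage, complement and signalling genes and of tissue and sex checks was also named. Fcer1a, Fcrla and similar genes under the floor and the genes between Fcgr2b and Fcer1g were named after their values were seen. The same holds for Pf4 and for the granulocyte and erythroid markers of smaller ratio. The members and lists were chosen with earlier results of these data known. Alternatives changed the floor, the scaling, the probe sets and the fold threshold.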

Additional observations from a re-analysis of the deposited data

How the results depend on the processing

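Across 9 planned settings and 1 added after seeing the data, no result changed direction past 2-fold. Fcgr2b was the 1 gene of the set that was 2-fold higher in 8 of these settings; without suffixed probe sets it had no value and 0 genes and 0 probe sets were 2-fold higher, and at 1.5-fold Fcer1g joined it, making 2. Its log2 ratio fell to 1.59 under a 60th percentile floor, where 2 probe sets were 2-fold higher, to 1.62 with a pseudocount of 24 and to 1.89 by the median of probe sets. Without _s_at and _x_at probe sets 2 probe sets were 2-fold higher. No gene of the set was 2-fold lower in any setting. The median of the set stayed between 0.31 and 0.41. The background counts moved most: genes 2-fold higher and lower were 210 and 136 when the 40th percentile served as floor, 41 and 33 for the 60th, 62 and 41 with the pseudocount, 1725 and 1566 with no floor and no filter, and 436 and 382 at 1.5-fold. With suffixed probe sets left out the macrophage median was 0.25, against 0.51. Rescaling by quantiles or by the 75th percentile moved no count of the set.

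No paired analysis was possible because each group has 1 array, and neither array was left out. Signal over background limits Fcgr2b, whose wild-type signals lie just above the floor on 2 probe sets and under it on 2, and Fcgr4, Trem2 and Btk, whose wild-type signals lie under it.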
